A study of Mus musculus with 14 samples.

Results

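Transcripts of 10 genes of inflammatory signalling were followed in subcutaneous white adipose tissue: the cytokine Tnf, its receptors Tnfrsf1a and Tnfrsf1b, the interleukins Il1b and Il6, the interleukin-1 receptor antagonist Il1rn, the inflammasome sensor Nlrp3, and the feedback inhibitors Tnfaip3, Nfkbia and Socs3. They were chosen by gene symbol from the platform annotation, which gave 20 probe sets for the 10 genes, of 18193 genes with a probe set of their own. All mice were male, 12 weeks of age and of the inbred strain C57BL/6. The exercised group (7 arrays) was kept with running wheels for 11 days, and the sedentary group (7 arrays) served as its control. The labels name no mutation, diet or other agent for either group. They do not tie arrays to individual mice, so p-values cover only the spread among these arrays, part or all of which may be technical. The transcripts were read from whole tissue, where fewer cells of a type and less RNA per cell cannot be told apart.

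Tnf is a cytokine made mainly by macrophages and other immune cells. It acts through Tnfrsf1a, found on most cells, and Tnfrsf1b, found mainly on immune and endothelial cells. Both receptors, like the interleukin-1 receptor, activate NF-kB, a family of transcription factors that are held in the cytoplasm by inhibitors such as the product of Nfkbia. NF-kB switches on inflammatory genes and, among them, its own inhibitors Nfkbia and Tnfaip3, while the cytokine Il6 acts through STAT3, which switches on the inhibitor Socs3. In obese adipose tissue Tnf and Il6 are known as signals that interfere with insulin action.

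Each array gave a signal, an intensity on a linear scale, for each probe set, and where a gene had several probe sets, the one with the highest mean over the 14 arrays stood for it. A gene was tested if that mean reached 389.8 signal units, the 40th percentile, which left 12944 genes. Array medians lay between 531.3 and 617.4. Differences are given as exercised minus sedentary on the scale of log2(signal + 46.7), which understates changes of weak signals. The test was limma's, and an adjusted p (Benjamini-Hochberg over the 12944 genes) under 0.05 counted as passing.

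The fat marker Adipoq, which encodes adiponectin, had a mean signal of 59745 ± 5241 in exercised and 57627 ± 7115 in sedentary tissue (SD, n = 7 each), and all 7 adipocyte markers with a probe set passed the filter on signal. The sedentary array 5 stood apart from the rest. It held the highest signal of the 14 arrays for 2984 genes, and in 169 genes its signal was over 2-fold above that of every other array, against 0 to 66 genes on each of the other 13 arrays. The summed signal of 8 neutrophil markers was 71448 on this array, against 2763 to 7350 on the exercised arrays and 3580 to 16147 on the other 6 sedentary arrays. The summed signals of 12 macrophage markers (204640) and of B lymphocyte markers (68140) were also the highest of the 14 there, and that of the adipocyte markers (237074) was the lowest. The ratio of the 3' to the 5' Gapdh probe set, a measure of RNA integrity, was 0.747 on sedentary array 5, inside the range of 0.71 to 0.788 of the exercised arrays. The results on the 10 genes are therefore given with and without sedentary array 5.

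Of the 10 genes, Tnf fell in exercised tissue and no other passed the test in either direction. Over all genes tested 5.53% passed, with 1.53% lower and 4.0% higher in exercised tissue. Without sedentary array 5, 0 of the 10 passed by limma, against 5.55% of all genes (1.71% lower and 3.84% higher). Then 2 of the 10, Tnf and Tnfaip3, were lower at an unadjusted p under 0.05, where 10.2% of all genes were. With all arrays 4 of the 10 were lower at that level (Tnf, Tnfaip3, Nlrp3 and Il1rn), where 10.5% of all genes were. Tnf and Il6 were in these counts through sedentary array 5. Without it their means, 379.7 and 164.4, did not pass the filter. Differences lay below 0 for 9 of the 10 genes with all arrays and 8 without sedentary array 5, and for 55.0% and 57.0% of all genes. The median difference of the 10 was -0.53 with all arrays and -0.16 without sedentary array 5, and that of all genes tested was -0.03 in both. In all 10 genes the exercised values overlapped the sedentary ones, with and without sedentary array 5. The groups did not overlap in 2.68% of all genes with all arrays and in 2.93% without that array.

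**Figure D1:**
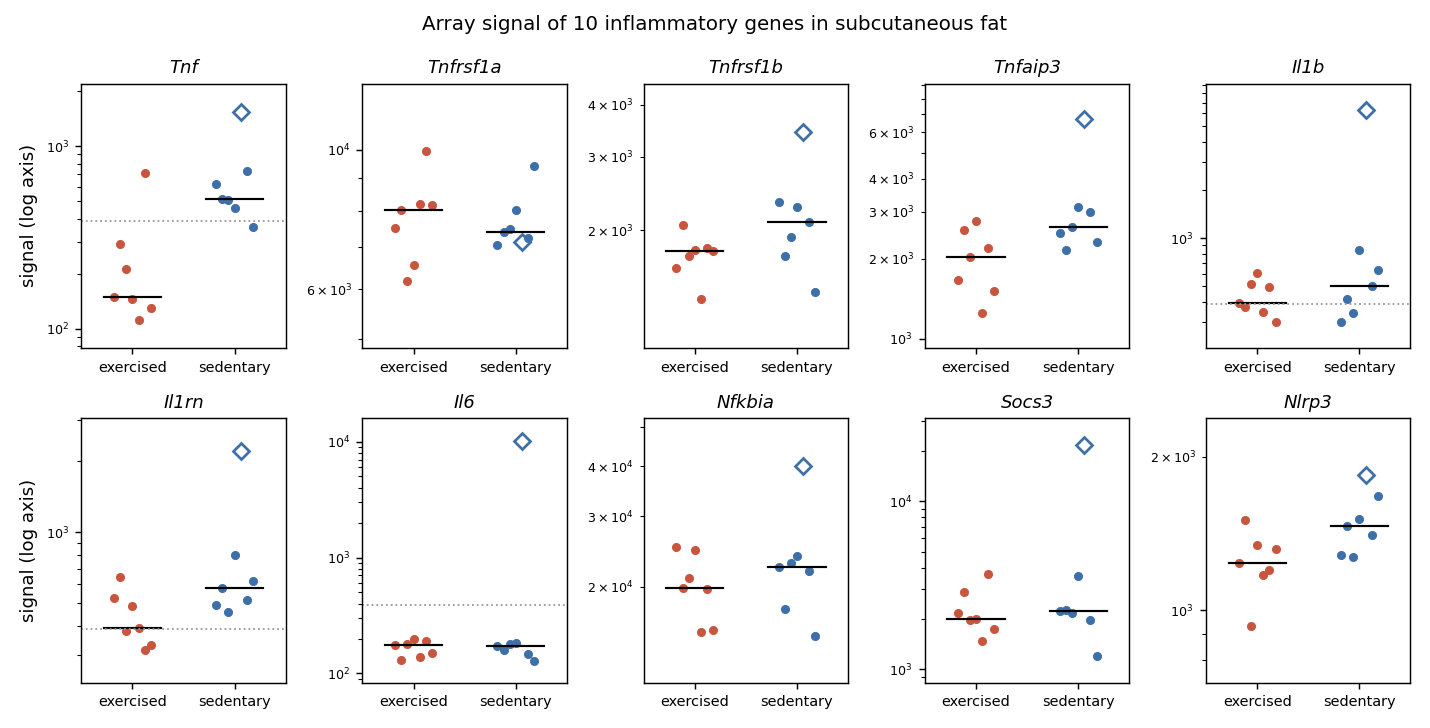
Signal of each of the 10 genes on a log axis, exercised arrays on the left and sedentary arrays on the right of each panel; a point is an array, the open diamond is sedentary array 5, the black line is the group median, and the dotted line, drawn where values fall below it, is the filter level of 389.8. In 9 of the 10 panels the diamond is the highest value, and for Tnf 6 of 7 exercised points lie below all sedentary ones.

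The signal of Tnf ran from 111.7 to 713.3 with a median of 149.9 on the exercised arrays, and from 358.4 to 1540.0 with a median of 511.3 on the sedentary arrays. On 6 of 7 exercised arrays it lay below the lowest sedentary value, and the exception was exercised array 6, at 713.3. The mean was 250.3 ± 213.0 in exercised and 674.8 ± 399.1 in sedentary tissue (SD, n = 7 each). The difference was -1.36 on the log2 scale (SE 0.35, adjusted p = 0.0358 by limma). Without sedentary array 5 the other 6 sedentary arrays averaged 530.6 ± 128.5, and the difference was -1.15 (SE 0.32, adjusted p = 0.0504), which ends the call. The call also ended when any of 9 other arrays was left out (exercised 1, 3, 4, 5 or 7, or sedentary 1, 2, 3 or 6; adjusted p up to 0.0784). It held without exercised array 2 or 6 or sedentary array 4 or 7. Without exercised array 6 the difference was -1.62 (SE 0.29, adjusted p = 0.00801).

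Tnf was a weak signal, represented by a single probe set. It reached the filter level on 1 of 7 exercised and 6 of 7 sedentary arrays. Its mean over the 14 arrays, 462.5, passed the filter, while its mean over the 13 arrays without sedentary array 5, 379.7, did not, so it was tested through that array. In a limma fit with no filter on signal its adjusted p was 0.0466 with 1 probe set per gene. Over all probe sets, again with no filter, it was 0.0608, which does not pass.

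Neither receptor of Tnf passed the test. Tnfrsf1a, which carries the death domain that starts NF-kB and cell death signalling, ran from 6194.5 to 9940 with a median of 8022 on the exercised arrays, and from 7058 to 9420 with a median of 7404 on the sedentary arrays. The difference was 0.01 (SE 0.10, adjusted p = 0.953), with a 95% interval from -0.20 to 0.23. It was the only gene of the 10 that was not at its highest on sedentary array 5, where its signal was 7145, the 11th of the 14 from the top. Tnfrsf1b, the receptor without a death domain, had a median of 1777 on the exercised arrays (1362 to 2052) and 2097 on the sedentary arrays (1417 to 3434). All 7 exercised arrays lay below the sedentary median. The difference was -0.28 (SE 0.15, adjusted p = 0.30), and -0.16 (SE 0.12, adjusted p = 0.479) without sedentary array 5. A weaker probe set of Tnfrsf1b differed by -0.03 (SE 0.16).

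Il1b encodes interleukin-1 beta, which the inflammasome protease caspase-1 activates. Its signal ran from 299.9 to 605.2 with a median of 396.6 on the exercised arrays, and from 301.1 to 6318 with a median of 502.3 on the sedentary arrays. The highest value belonged to sedentary array 5, and the next highest sedentary value was 848.9. The lowest exercised and lowest sedentary values differed by little, and 1 exercised array lay below all sedentary ones. The difference was -0.68 (SE 0.50, adjusted p = 0.455) with all arrays and -0.16 (SE 0.22, adjusted p = 0.726) without sedentary array 5. The signal reached the filter level on 4 exercised and 5 sedentary arrays.

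Il1rn encodes the antagonist that occupies the interleukin-1 receptor without activating it. Its signal ran from 315.6 to 645.0 with a median of 392.4 on the exercised arrays, and from 456.6 to 2209 with a median of 576.5 on the sedentary arrays. On 4 of 7 exercised arrays it lay below the lowest sedentary value. The difference was -0.64 (SE 0.29, adjusted p = 0.208), and -0.37 (SE 0.17, adjusted p = 0.245) without sedentary array 5. The probe sets of Il1rn disagreed: a second one that passed the filter differed by 0.08 (SE 0.21), and the remaining one, under the filter, by -0.53 (SE 0.45).

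Il6 was at a low level on 13 of the 14 arrays. Its signal ran from 131.8 to 198.3 with a median of 174.1 on the exercised arrays, and from 128.9 to 183.6 with a median of 166.9 on the 6 sedentary arrays other than array 5. On sedentary array 5 it was 10196. No fold is given, since the other 13 values lie under the filter level. The gene therefore passed the filter through that array alone, with means of 881.0 over 14 arrays and 164.4 over the other 13. The difference was -0.78 (SE 0.73, adjusted p = 0.558) with all arrays and 0.02 (SE 0.18, adjusted p = 0.959) without it. On the 13 arrays the values are low signals, under the filter level, and their differences are those of weak signals.

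Nlrp3, the sensor around which the inflammasome assembles, had a median of 1237 on the exercised arrays (933 to 1506) and 1463 on the sedentary arrays (1272 to 1837). On 4 of 7 exercised arrays it lay below the lowest sedentary value, and sedentary array 5, at 1837, was only 1.10 times the next highest array. The difference was -0.25 (SE 0.11, adjusted p = 0.183), and -0.20 (SE 0.10, adjusted p = 0.292) without that array.

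Among the feedback inhibitors, Tnfaip3, also called A20, which edits ubiquitin chains on signalling proteins below the Tnf receptors, had a median of 2026 on the exercised arrays (1251 to 2782) and 2636 on the sedentary arrays (2163.5 to 6724.5). On 4 of 7 exercised arrays its signal lay below the lowest sedentary value. The difference was -0.61 (SE 0.23, adjusted p = 0.142), and -0.42 (SE 0.17, adjusted p = 0.174) without sedentary array 5, with a 95% interval from -0.78 to -0.06. A second, weaker probe set had a median of 136.8 on the exercised and 615.8 on the sedentary arrays. Its difference was -1.15 (SE 0.39, adjusted p = 0.113 by limma over 27022 probe sets). Its exercised mean, 314.6, lay under the filter level of 389.8. It passed the filter through the sedentary arrays, with a mean of 636.5, so it is a weak signal and no separate support.

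Nfkbia, which encodes the NF-kB inhibitor IkB alpha, was a strong signal. It had a median of 19832 on the exercised arrays (15431 to 25180) and 22374 on the sedentary arrays (15133 to 40102). The difference was -0.17 (SE 0.18, adjusted p = 0.60), and -0.03 (SE 0.14, adjusted p = 0.91) without sedentary array 5, with a 95% interval from -0.33 to 0.26. The other 4 probe sets of the gene differed by -0.23 to 0.05, and none passed the test. On the weakest of the 5, sedentary array 5 was the 9th of the 14 from the top, whereas on the others it was the highest.

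Socs3, an inhibitor of the kinases that cytokine receptors of the Il6 family use, had a median of 1975 on the exercised arrays (1464 to 3690) and 2221 on the sedentary arrays (1195.5 to 21539.5). The value of 21539.5 belonged to sedentary array 5 and was 5.84 times the next highest, which was exercised array 6, at 3690. The difference was -0.44 (SE 0.47, adjusted p = 0.615) with all arrays and 0.04 (SE 0.23, adjusted p = 0.95) without sedentary array 5. The other probe sets differed by -0.50 (SE 0.42) and 0.04 (SE 0.58) with all arrays. Without sedentary array 5 they differed, in the same order, by -0.08 (SE 0.23) and 0.59 (SE 0.35). The probe set used here is of a kind whose probes can match other transcripts, as its name marks.

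**Figure D2:**
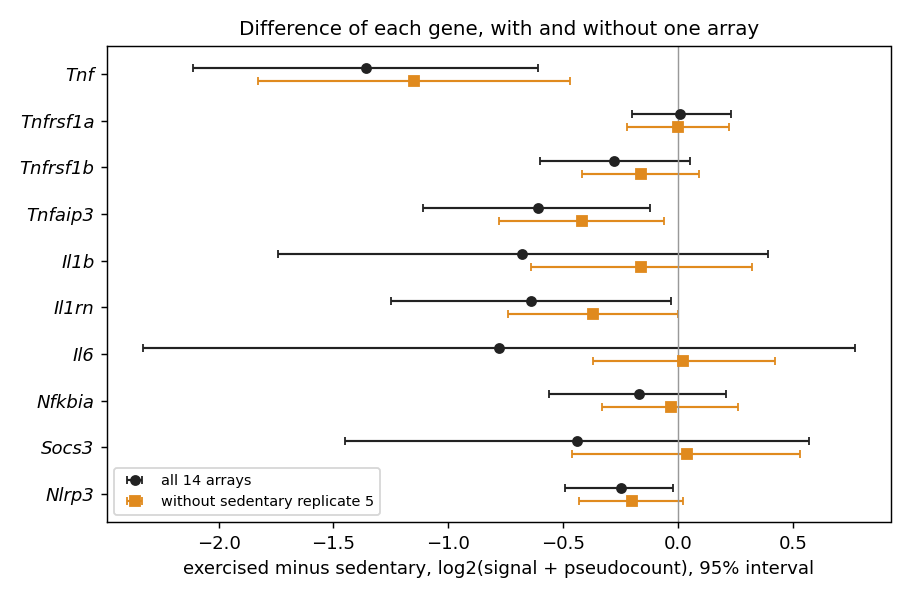
Difference of each of the 10 genes, exercised minus sedentary on the log2 scale, with its 95% interval from limma; circles use all 14 arrays and squares leave out sedentary array 5. Without that array the differences of Il1b, Il6 and Socs3 move to -0.16, 0.02 and 0.04 and their intervals narrow, and that of Tnf moves to -1.15, against -1.36 with all arrays.

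Sedentary array 5 held the highest signal of the 14 arrays for 9 of the 10 genes, where it did so for 23.1% of all genes tested, and for 6 of the 10 (Il6, Il1b, Socs3, Il1rn, Tnfaip3 and Tnf) it was over 2-fold above every other array, where it was for 1.31% of all genes. Il6 and Tnf passed the filter through that array alone. Of the 8 genes whose mean over the other 13 arrays passed, it was the highest for 7, against 22.9% of all such genes. It was over 2-fold above every other array for 4, against 1.16%. Both counts were added after the data were seen, and both kept the probe sets chosen over 14 arrays. For Il1rn another probe set was the strongest over the other 13. On that probe set sedentary array 5 held 1062.1, against 683.9 on the next highest array. The factors above the next highest array were 7.44 for Il1b, 5.84 for Socs3, 2.77 for Il1rn, 2.15 for Tnfaip3 and 2.11 for Tnf. The receptor Tnfrsf1b (1.47), Nfkbia (1.59) and Nlrp3 (1.10) exceeded the next array by less. Other genes high on this array, named after their values were seen, were Acod1, an enzyme induced in activated macrophages (6318 on sedentary array 5 and at most 22.8 elsewhere), and the chemokines Cxcl5 (8289 and at most 175.6) and Cxcl1 (26613 and at most 691.3). The part of neutrophil, macrophage and lymphocyte RNA, whose markers were highest on the same array, in these values was not tested.

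**Figure D3:**
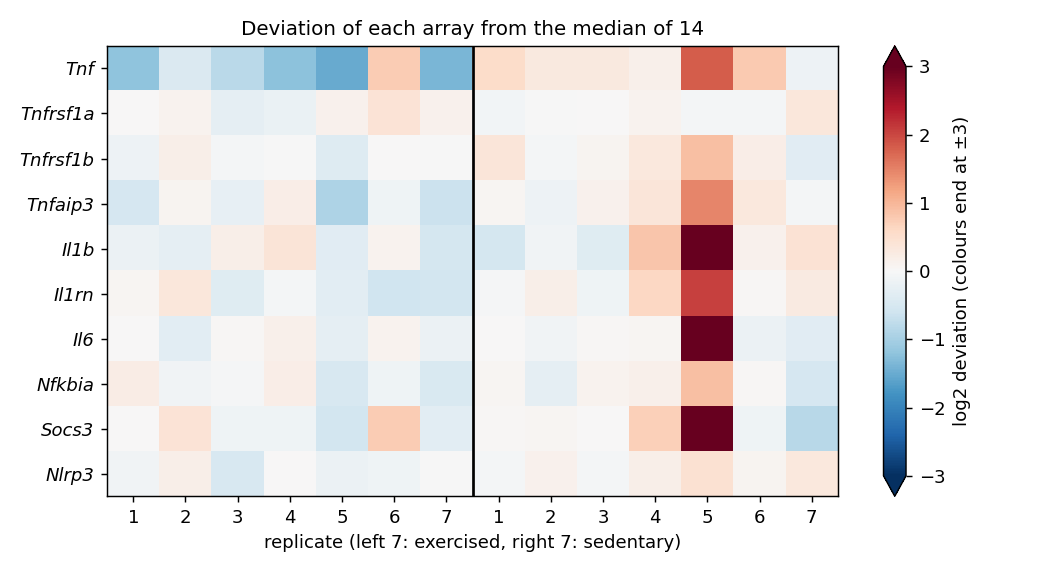
Deviation of each array from the median of the 14 arrays for each of the 10 genes, in log2 units, with exercised arrays left of the black line and sedentary arrays right of it; red is above and blue below the median, and colours end at 3. The column of sedentary array 5 is red for 9 genes, and the row of Tnf is blue on 6 exercised arrays.

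The bases before the start sites of the genes that stood highest on that array were read for the motifs of the factors named above, because NF-kB and STAT3 are known regulators of Il6, Tnfaip3, Nfkbia and Socs3. In RefSeq sequence of the mouse build GRCm38.p6, 14 windows of 250 bases before annotated start sites were held for the 10 genes. The NF-kB consensus motif, searched on both strands, was found in 4 of the 14 windows, of 4 genes (Il6, Tnfaip3, Nfkbia and Nlrp3), and in 7.25% of all 32851 windows. The STAT motif TTCNNNGAA, which reads the same on both strands, was found in 3 windows, of Socs3, Tnfrsf1a and Tnfrsf1b, and in 7.02% of all windows. No window of the 10 genes held both motifs. The windows are printed 5' to 3' on the strand of the gene, ending at the base before the start site, with motif matches in capitals.
Il6, chr5:30012864-30013113, plus strand: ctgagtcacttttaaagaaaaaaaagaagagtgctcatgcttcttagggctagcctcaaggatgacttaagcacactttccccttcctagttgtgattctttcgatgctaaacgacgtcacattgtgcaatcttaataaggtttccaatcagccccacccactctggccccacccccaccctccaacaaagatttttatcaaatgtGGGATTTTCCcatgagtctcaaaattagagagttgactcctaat
Tnfaip3, chr10:19015411-19015660, minus strand: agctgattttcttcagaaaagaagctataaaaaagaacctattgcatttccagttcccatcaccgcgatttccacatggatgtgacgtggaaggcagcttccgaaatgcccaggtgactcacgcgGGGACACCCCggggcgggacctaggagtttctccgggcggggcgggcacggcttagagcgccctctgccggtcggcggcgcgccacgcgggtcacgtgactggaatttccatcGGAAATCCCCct
Nfkbia, chr12:55492648-55492897, minus strand: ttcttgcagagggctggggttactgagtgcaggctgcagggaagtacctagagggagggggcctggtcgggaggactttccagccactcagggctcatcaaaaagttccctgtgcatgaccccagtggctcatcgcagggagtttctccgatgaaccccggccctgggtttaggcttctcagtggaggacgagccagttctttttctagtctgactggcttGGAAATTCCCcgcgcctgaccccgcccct
Socs3, chr11:117969367-117969616, minus strand: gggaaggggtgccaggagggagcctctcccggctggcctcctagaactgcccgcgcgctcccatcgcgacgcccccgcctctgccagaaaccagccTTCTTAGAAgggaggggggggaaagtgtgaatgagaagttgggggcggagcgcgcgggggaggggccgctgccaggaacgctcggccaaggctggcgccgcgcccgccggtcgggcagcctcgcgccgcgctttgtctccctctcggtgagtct
The match in Il6 began 44 bases before the start site and that in Nfkbia 29 bases before it. Tnfaip3 held 2 matches, which began 125 and 12 bases before the start site shown, and the window of its other start site held none. The match in Socs3 began 154 bases before the start site. The 250 bases before the start sites of Tnf, Il1b and Il1rn, which also stood highest on sedentary array 5, held neither motif in these windows. A match describes letters only and binding was not measured.

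The arrays at the ends of each group differed between the 10 genes. Exercised array 5 was the lowest of the exercised arrays for 5 genes (Tnf, Tnfrsf1b, Tnfaip3, Nfkbia and Socs3), and sedentary array 7 was the lowest of the sedentary arrays for 5 (Tnf, Tnfrsf1b, Il6, Nfkbia and Socs3). Exercised array 6 was the highest of its group for Tnf, Tnfrsf1a and Socs3, exercised array 4 for Tnfaip3, Il1b and Il6, and exercised array 2 for Tnfrsf1b, Il1rn and Nlrp3. Over the 14 arrays the 5 genes most like Tnf by Pearson r of log2 values were Mettl3, an RNA methyltransferase, Rpl22l1, Snapc1, Aen and Hnrnpc (r = 0.86 to 0.88). Their Spearman rho was 0.79 for Mettl3 and 0.94 for Rpl22l1. Over the 13 arrays without sedentary array 5 the most alike by Pearson r were Anp32a (r = 0.88, rho = 0.92), Abcc3, Fam20c, Cd33, a surface receptor of myeloid cells, and Rpl22l1, which was in both sets. Of these, Hnrnpc (adjusted p = 0.0302) and Fam20c (adjusted p = 0.00887) passed limma's test and were lower in exercised tissue. Their other probe sets did not pass: Hnrnpc differed by -0.15 (SE 0.08), and Fam20c by -0.63 (SE 0.25) and 0.24 (SE 0.20). The genes most like Tnf were picked from 12944 for their likeness, and the values include the difference between the groups, so they are descriptions with no test. Of the other 9 genes Tnfaip3 had the highest Pearson r with Tnf, 0.79 over 14 arrays and 0.67 over 13. By Spearman rho it was Tnfrsf1b, with 0.67 and 0.59, against 0.62 and 0.53 for Tnfaip3, while Tnfrsf1a had r = 0.07 and r = 0.21.

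The other genes of the same pathways were read from 6 lists. In Tnf receptor signalling 0 of 21 genes tested passed the test, with a median difference of -0.18. The 2 with the smallest p were the deubiquitinases Cyld (-0.32, SE 0.11, adjusted p = 0.119) and Otulin (-0.19, SE 0.08, adjusted p = 0.163), which both limit NF-kB signalling. At an unadjusted p under 0.05 by limma, where 10.5% of all genes were lower, 3 of the 21 were lower and 0 higher. Without sedentary array 5, 1 of the 21 was lower at that level (10.2% of all genes), and the median was -0.13.

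Among the subunits of NF-kB, their inhibitors and kinases 0 of 17 passed, with a median of -0.14. At an unadjusted p under 0.05 by limma 3 were lower (10.5% of all genes) and 1 was higher. Without sedentary array 5, 0 were lower (10.2% of all genes) and 1 was higher, with a median of -0.08. The share of all genes higher at that level was not counted. Tab3, an adaptor of the kinase that activates the IkB kinases, had 1700 ± 204.5 in exercised and 1241 ± 299.4 in sedentary tissue (0.47, SE 0.14, adjusted p = 0.0598), and Ikbkb, one of those kinases, differed by -0.30 (SE 0.14, adjusted p = 0.215). The other probe sets of Ikbkb differed by -0.46 to 0.11, and none passed the test. On sedentary array 5 Bcl3, Nfkbiz, Ikbke and Nfkb2, which were chosen after their values were seen, were over 2-fold above every other array, where 1.31% of all genes were.

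In the list of interleukin-1 and Toll-like receptor signalling 1 of 21 fell and 0 rose, where 1.53% of all genes were lower and 4.0% higher. The gene that fell was Sigirr, a receptor that inhibits signalling by the interleukin-1 and Toll-like receptors. Its signal ran from 974.6 to 1699 with a median of 1359 on the exercised arrays, and from 1421 to 2040 with a median of 1757 on the sedentary arrays. The difference was -0.45 (SE 0.13, adjusted p = 0.0479), and -0.41 (SE 0.13, adjusted p = 0.0763) without sedentary array 5, which ends the call. At an unadjusted p under 0.05 by limma 5 of the 21 were lower (10.5% of all genes) and 0 higher, with a median of -0.21. Without sedentary array 5, 4 of the 21 were lower at that level (10.2% of all genes), and the median was -0.14.

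For the inflammasome 0 of 8 passed (median -0.14), and 0 had an unadjusted p under 0.05 by limma. The adaptor Pycard had 3229 ± 788.6 in exercised and 4856 ± 2124 in sedentary tissue (-0.53, SE 0.25, adjusted p = 0.23), and Txnip, which binds Nlrp3, differed by 0.35 (SE 0.18, adjusted p = 0.283). In signalling by the Il6 family, other cytokine receptors and their kinases 0 of 19 passed (median -0.21), with 5 lower (10.5% of all genes) and 0 higher at an unadjusted p under 0.05 by limma. Without sedentary array 5, 1 of the 19 was lower at that level (10.2% of all genes), and the median was -0.12. Osmr, the oncostatin M receptor (-0.28, SE 0.11, adjusted p = 0.174), and Il10rb, a chain of the interleukin-10 receptor (-0.21, SE 0.09, adjusted p = 0.178), had the smallest p there.

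Of 21 genes known as targets of NF-kB, 1 rose and 0 fell, where 4.0% of all genes tested were higher and 1.53% lower. The gene that rose was Sod2, the superoxide dismutase of mitochondria, with 22670 ± 3617 in exercised and 16032 ± 693.4 in sedentary tissue (SD, n = 7 each). Its 7 exercised values all lay above the sedentary ones, where the groups did not overlap in 2.68% of all genes. The difference was 0.48 (SE 0.09, adjusted p = 0.00636), and 0.49 (SE 0.09, adjusted p = 0.00745) without sedentary array 5. The other 3 probe sets of Sod2 differed by 0.44 to 0.62. Sod2 is also part of the mitochondrial antioxidant system. The target list had a median of -0.22 with all arrays and 0 without sedentary array 5. On that array 17 of its 21 genes were at their highest, against 23.1% of all genes. There 9 of the 21 were over 2-fold above every other array, against 1.31% of all genes. Differences lay below 0 for 18 of the 21 with all arrays and for 10 without that array, against 55.0% and 57.0% of all genes.

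**Figure D4:**
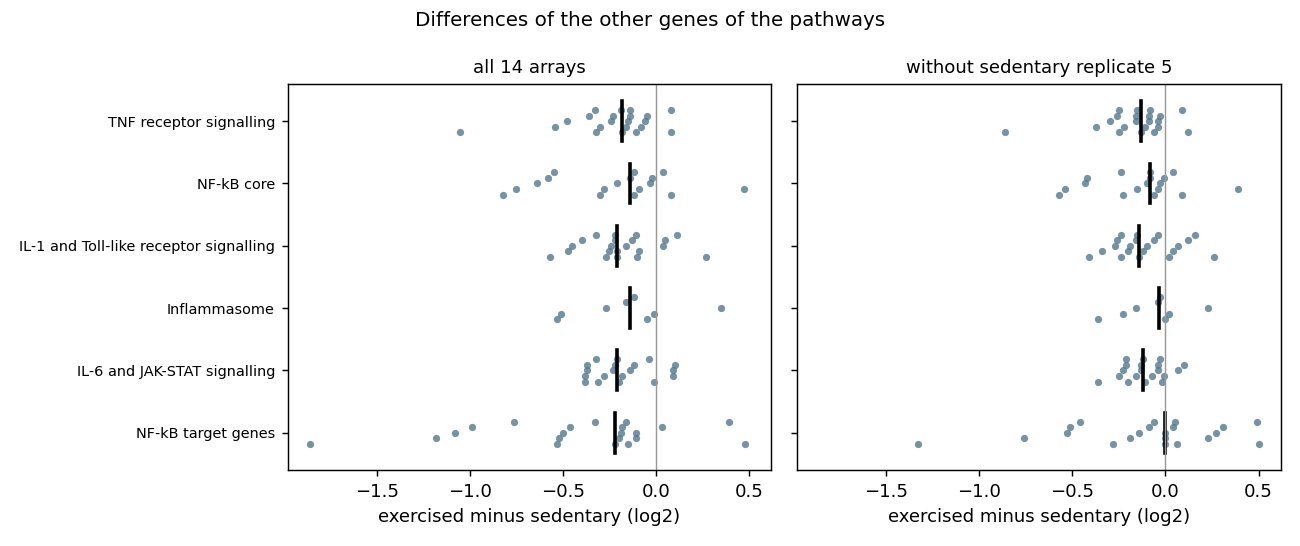
Difference of each gene tested in 6 pathway lists, exercised minus sedentary on the log2 scale, with all 14 arrays on the left and without sedentary array 5 on the right; a point is a gene and the black bar the median of its list. The medians lie between -0.22 and -0.14 on the left and between -0.14 and 0 on the right, beside -0.03 for all genes tested.

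Markers of immune cells stood beside these values as follows. The summed signal of the 12 macrophage markers was 120580 to 159002 (median 126701) on the exercised arrays and 126538 to 204640 (median 155107) on the sedentary arrays, and without sedentary array 5 the highest sedentary sum was 194458. Of the 12, 1 fell (Tyrobp, an adaptor of myeloid receptors, named after its value was seen) and 0 rose, where 1.53% of all genes tested were lower and 4.0% higher. The median difference of the 12 was -0.31, and -0.22 without sedentary array 5. The defining markers Adgre1 (-0.28, SE 0.16, adjusted p = 0.308) and Cd68 (-0.60, SE 0.21, adjusted p = 0.107) did not pass. Of 8 neutrophil markers with a probe set, 5 passed the filter and 0 of them passed the test. The defining markers S100a8 (-1.96, SE 0.73, adjusted p = 0.134) and S100a9 (-1.74, SE 0.84, adjusted p = 0.24) had wide errors. Without sedentary array 5 these 2 markers differed by -1.42 (SE 0.59, adjusted p = 0.185) and -1.10 (SE 0.66, adjusted p = 0.376). The part of macrophages and neutrophils in the difference of Tnf was not tested. Of 7 brown and beige fat markers 4 rose and 0 fell, where 4.0% of all genes tested were higher and 1.53% lower. The summed signal of these markers was 31140 to 109802 on the exercised arrays and 4076 to 30901 on the sedentary arrays. None of the marker sums was 0 on any array. The summed signal of skeletal muscle markers was 3126 to 472165 (median 258109) on the exercised arrays and 2313 to 193189 (median 7543) on the sedentary arrays. It was highest on exercised array 6, the exercised array with the highest Tnf, and the part of brown fat or muscle RNA in these differences was not tested.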

How the data were processed

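RNA extracted from frozen fat was labelled with biotin as cRNA by the standard protocol for Affymetrix arrays, according to the labels. Per the submitters' processing notes the authors used MAS5, and the deposited table holds an intensity (signal) for each probe set. No MAS5 version, setting or detection call was used here. From the values, the mean of each array without its highest and lowest 2% was 1500.0, so array totals cannot be compared. The number of arrays limits the precision.

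Values of 45101 probe sets on 14 arrays were transformed as log2(signal + 46.7), the 10th percentile of all values. The 64 control probe sets, probe sets with several symbols (932) or none in the table used (9160), and probe sets with a mean under 389.8 were left out. Gene symbols come from the platform annotation, brought up to date by Entrez number against RefSeq (34741 of 34945 probe sets matched). The groups, taken from the array titles, were set against each other in R 4.3.3 by limma 3.58.1 (two-sided; eBayes, variance trend on). Fits without an array kept the same 12944 genes. The code was tested on simulated data.

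The genes and lists were chosen with earlier results of these data known. The text names the 10 genes, of each pathway list up to 4 genes past the threshold or else the 2 with the smallest p, the first 2 markers of a cell type, and the 5 genes most like Tnf over 14 and over 13 arrays. Alternatives covered the pseudocount, filter, scaling, probe sets, variance model, weights for arrays, a replicate block and leaving out each array. Of the lists of other cells, mast cells, T lymphocytes, endothelium, stroma and keratinocytes had 0 genes past the threshold, and brown and beige adipocytes had 4 that rose.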

Additional observations from a re-analysis of the deposited data

Results flagged for a closer look

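In 5 of the 10 genes the highest of the 7 sedentary values was separated from the others by more than Dixon's 95% critical value for 7 samples allows, and in each it was sedentary array 5. Its signals were 6724.5 for Tnfaip3, 6318 for Il1b, 2209 for Il1rn, 10196 for Il6 and 21539.5 for Socs3. On that log2 scale no exercised array and no low value was separated in this way in the 20 groups examined. Chance separates about 1 in 20. The linear signals were not put to this test, and other values may be separated on them. The 5 separations come from a single array and so are not independent of each other.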

How the results depend on the processing

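The difference of Tnf stayed below 0 under all 25 alternatives that could be run, and its adjusted p was under the threshold in 14 of them (range over the 25, 0.00801 to 0.0855). The pseudocount moved it most outside the removal of arrays, to -1.57 with a pseudocount of 1 and -0.99 with 184.7. Leaving out single arrays gave -1.62 to -1.15 for Tnf, -0.05 to 0.07 for Tnfrsf1a, -0.95 to 0.02 for Il6 and -0.65 to 0.04 for Socs3, and none of the last 3 passed in any of them. Over the same removals the count of the 10 genes that passed was 0 to 1, the genes passing numbered 402 (without exercised array 7) to 853 (without sedentary array 7), against 716 with all arrays, those higher 309 to 591 and those lower 79 (without exercised array 3) to 262. Without sedentary array 5, 0 genes of the interleukin-1 and Toll-like receptor list passed. With the replicate number as a block, Tnf kept -1.36 with an adjusted p of 0.0855, 0 of the 10 genes passed, and 161 genes passed in all, 136 higher and 25 lower. Same-numbered arrays deviated together in only 3 of 7 pairs (correlations from -0.43 to 0.38), so the numbers are taken to share only a name. Centring on array medians gave 547 higher and 86 lower genes, against 518 and 198, and array weights gave 398 lower. Tnfrsf1a was -0.01 after quantile normalization. A filter at the 60th percentile left Tnf out, and 0 of the 10 genes passed. In an alternative chosen after seeing the data, the filter was recomputed without sedentary array 5: Tnf and Il6 were left out, 0 of the 8 remaining genes passed, Tnfrsf1a was -0.002, Socs3 was 0.04, and Il1rn was 0.23 because another of its probe sets became the strongest. The cause of the other changes was not tested. Signals under the filter level, as those of Il6 on 13 arrays, limit what can be read from the weakest genes.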

Other observations

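Sedentary array 7 also stood apart, in the other direction for several of these genes. It was over 2-fold above every other array in 66 genes. It had the lowest summed signal of B lymphocyte markers (2199) and of T lymphocyte markers (4401) of the sedentary arrays and the highest of adipocyte markers (367293). Its signals of Socs3 and Nfkbia on the probe sets that stood for these genes, 1195.5 and 15133, were the lowest of the 14 arrays. On the other probe sets of Nfkbia another array was the lowest, and the other probe sets of Socs3 disagreed. Among genes of the pathway lists, Ccl2, a chemokine that attracts monocytes, differed by -1.08 (SE 0.56, adjusted p = 0.276) with all arrays and by -0.46 (SE 0.13, adjusted p = 0.0537) without sedentary array 5, where its signal was 19518 against at most 1161 elsewhere. Cebpb, a transcription factor of adipocytes and macrophages, pointed the other way, by 0.39 (SE 0.17, adjusted p = 0.202) and 0.50 (SE 0.15, adjusted p = 0.0665). Both genes were chosen after their values were seen.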
